A study of Mus musculus with 150 samples.

Results

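Tumours T1 and T9 are 2 lung tumours of 1 mouse, and their DNA copy number was compared bin by bin along the 19 autosomes. The members are the single cells whose column in the deposited log2 ratio table carries T1 or T9 in its name, 50 cells each of the 150 cells in the series. Cells with a bin-to-bin noise above 0.27 were left out, which removed 3 T1 cells and 0 T9 cells, so that 97 cells were described, 47 of T1 and 50 of T9. The third tumour, T7, kept 48 cells and serves only as a side value.

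Both tumours came from the same mouse, labelled M3 and KP_30w_ND, and were dissected separately 30 weeks after induction. The labels give a mixed C57BL/6 and Sv129 background with a Trp53 flox/flox genotype and Cre-dependent reporters (tdTomato and Luciferase) at Rosa26, and these are shared by all tumours. The induction protocol names AdSPC-Cre, an adenovirus in which the surfactant protein C promoter drives Cre in alveolar type 2 cells, or AdCMV-FlpO, without saying which was used for this mouse. The source is given as alveolar type 2 cells of lung tissue. DNA copy number carries no marker of cell type, so that label could not be checked, and whether normal cells were kept out was not looked into here.

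Lung adenocarcinomas of this kind lose p53 at the start, and p53 normally stops or kills cells that divide with damaged or unevenly shared chromosomes. Tumours of one animal can begin from different cells, and each then builds its own set of chromosome gains and losses, called private when found in one tumour and shared when found in both. A gain or loss of part of a chromosome ends at a breakpoint, where the DNA was cut and rejoined. The position of a breakpoint is a more specific mark of descent than the gain or loss of a whole chromosome, because whole chromosomes can be gained or lost again and again in unrelated cells.

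A log2 ratio gives the amount of DNA in a bin relative to the typical autosomal bin of the same cell, with 0 as the typical level. A doubling of the whole genome leaves it unchanged. The 4806 autosomal bins had a median length of 499.6 kb. A cell counted as gained at a bin if its segment there averaged 0.32 or more, the log2 ratio of 2.5 to 2 copies, and as lost if it averaged -0.42 or less, that of 1.5 to 2 copies. It was called in a tumour when at least 50% of the cells carried the call. Each tumour is 1 sample (n = 1), so no test was made between them. SDs are over cells, and intervals for shares of cells are exact Clopper-Pearson 95% intervals that cover counting error only.

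The sequenced bases per cell ran from 20.5 to 170.1 Mb in T1 with a median of 97.7 Mb, and from 43.3 to 82.1 Mb in T9 with a median of 56.7 Mb. The T1 cells were noisier, with a median noise of 0.19 against 0.13, although they were sequenced more deeply. The bin-to-bin noise of the median profile was 0.12 in T1 and 0.04 in T9, so the T1 cells share departures of single bins that averaging over cells does not remove. The labels do not say whether the cells of T1 and T9 were prepared alike, and the part of preparation in these differences was not tested. Differences over single bins and breaks beside narrow segments therefore carry less weight in T1 than steps that stand over many bins.

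The 5 microRNAs printed here, placed by RefSeq on GRCm38.p6, show the kinds of change that the comparison turned on, and they were chosen after their values were seen. MicroRNAs are short RNAs that bind messenger RNAs through their seed, bases 2 to 8, printed in capitals. The first pair lies on chromosome 9 where T1 had lost and T9 had gained DNA, the next pair shares a seed but lies in a loss of T1 alone and in a loss of both tumours, and the last lies in the loss of T1 alone.
mmu-miR-100-5p: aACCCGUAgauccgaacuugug
mmu-miR-125b-5p: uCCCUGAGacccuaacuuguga
mmu-miR-34a-5p: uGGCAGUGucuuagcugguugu
mmu-miR-34b-5p: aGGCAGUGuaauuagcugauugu
mmu-miR-200b-3p: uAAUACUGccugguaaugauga

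miR-100 (chr9:41531437-41531458, plus strand) and miR-125b (chr9:41581940-41581961, plus strand) sit in 1 bin, which stood at -0.62 in T1 and 0.45 in T9. That bin was lost in 47 of 47 T1 cells and gained in 45 of 50 T9 cells. miR-34a (chr4:150068473-150068494, plus strand) and miR-34b (chr9:51103610-51103632, minus strand) are known as direct targets of p53 and share the seed GGCAGUG. The miR-34a bin stood at -0.83 in T1 and -0.14 in T9 and was lost in 41 of 47 cells in T1 and 6 of 50 in T9. The miR-34b bin stood at -0.63 in T1 and -0.70 in T9 and was lost in 46 of 47 and 47 of 50 cells. In T1 both of these loci lay in lost DNA, and in T9 the miR-34b locus did. miR-200b (chr4:156055685-156055706, minus strand), a microRNA of epithelial cells, had -0.81 in T1 and -0.18 in T9. Of 919 microRNA hairpins placed on the bins, 6 (0.65%) lay in the opposite class, 49 (5.33%) in the T1-only losses and 32 (3.48%) in the shared losses. These shares are near those of all bins, 0.77%, 6.47% and 3.25%. MicroRNA levels were not measured, only the dose of their DNA.

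Bin by bin, the difference of the 2 median profiles had a median of 0.01 over the 4806 bins, with the middle 90% between -0.53 and 0.39. T1 was at least 0.30 higher in 571 bins (11.9%) and at least 0.30 lower in 750 bins (15.6%). Higher bins made up 43.2% of those that differed. With each cell centred on the mode of its bins in place of the median, that share was 27.01%, with 349 higher and 943 lower bins, and with a ratio taken from the depth table against T7 it was 54.3%. Of the higher bins, 508 lay where neither tumour was called gained or lost by the share rule, as did 388 of the lower ones. That is 89.0% of the higher and 51.7% of the lower bins. The count of higher bins fell to 230 (4.79%) at a difference of 0.40 and rose to 1132 (23.6%) at 0.20.

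**Figure D1:**
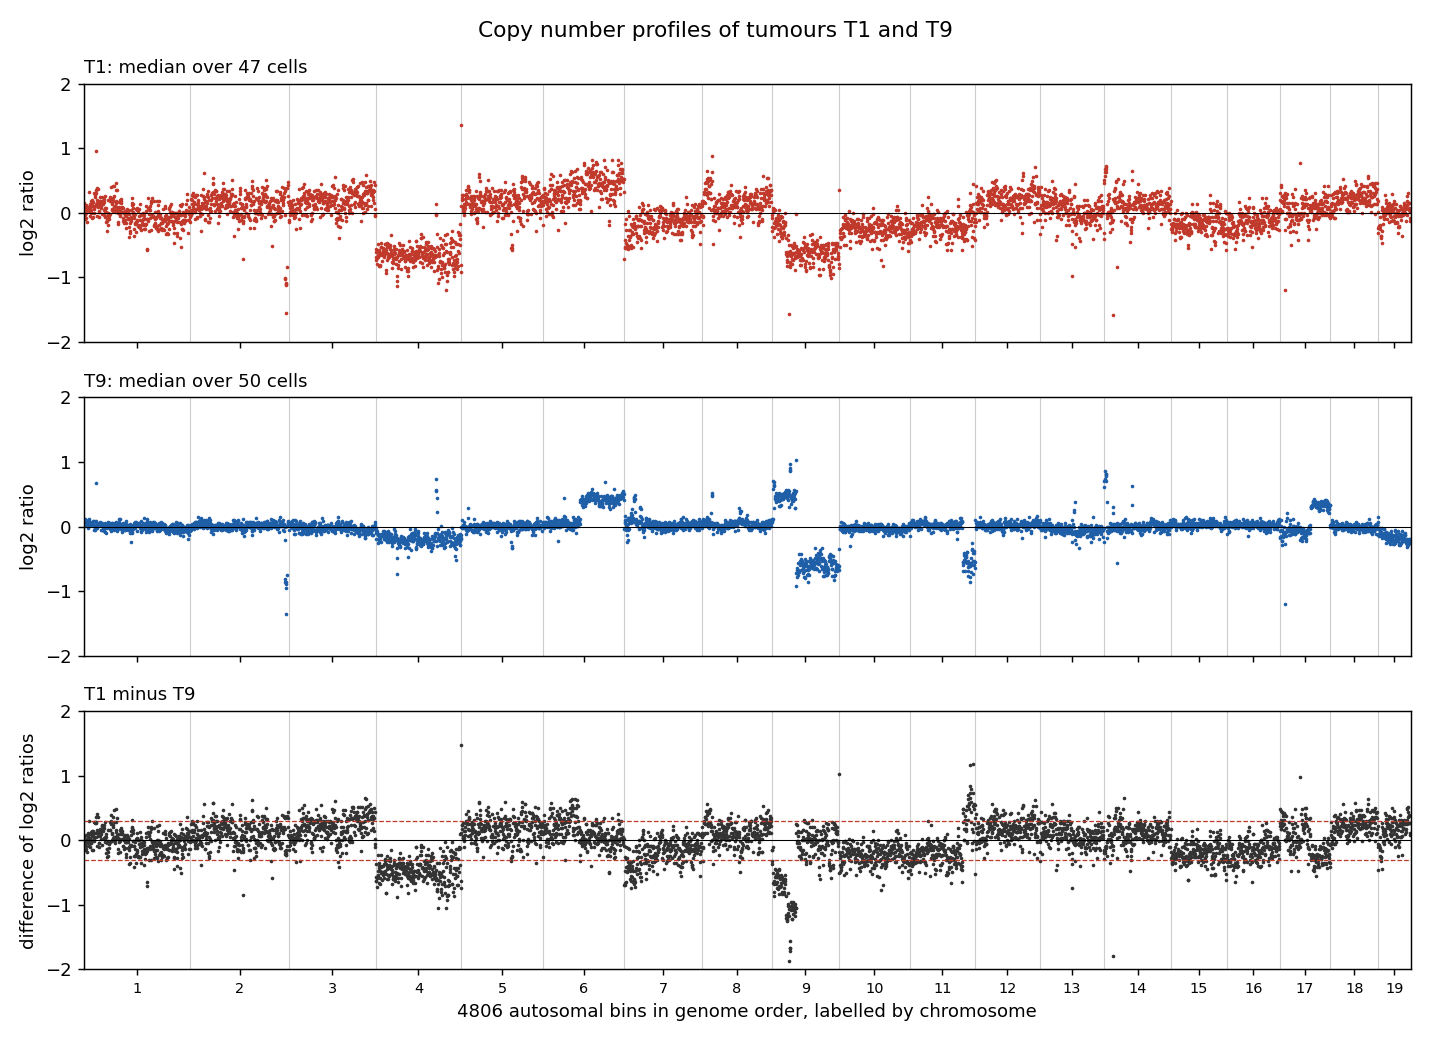
Median log2 ratio of each of 4806 autosomal bins over 47 T1 cells (top) and 50 T9 cells (middle), and T1 minus T9 (bottom, with dashed lines at a difference of 0.30 either way). T9 lies flat near 0 apart from steps on chromosomes 6, 9, 11 and 17 and lower levels on chromosomes 4 and 19, while T1 has few long stretches at 0 and its deepest long stretches on chromosomes 4 and 9.

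The called changes covered 800 bins (16.6%) in 1 or both tumours. T1 had 199 gained bins (4.14%) and 504 lost bins (10.5%), and T9 had 248 gained bins (5.16%) and 202 lost bins (4.20%). Both tumours had gained 160 bins (79.8 Mb) and both had lost 156 bins (77.0 Mb). Private changes covered more, 447 bins and 219.8 Mb. Of these, 311 bins were lost and 39 gained in T1 alone, and 51 were gained and 46 lost in T9 alone. Alone sets T1 against T9 only, and T7 was also gained over the 39 bins, in 35 of 48 cells. The remaining 37 bins (18.4 Mb) went in opposite directions, lost in T1 and gained in T9. All 37 also passed the rule for a T1 level at least 0.30 lower, and so did 254 of the 311 bins lost in T1 alone and 48 of the 51 gained in T9 alone.

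Cutting the chromosomes at the breaks of either profile gave 6 named regions, of which 3 lie end to end on chromosome 9. In order along the genome they are a loss of chromosome 4 in T1 alone, a gain of distal chromosome 6 in both, and the 3 pieces of chromosome 9, which were a gain in T9 alone, a change in opposite directions and a loss in both. The last is a loss of distal chromosome 11 in T9 alone.

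**Figure D2:**
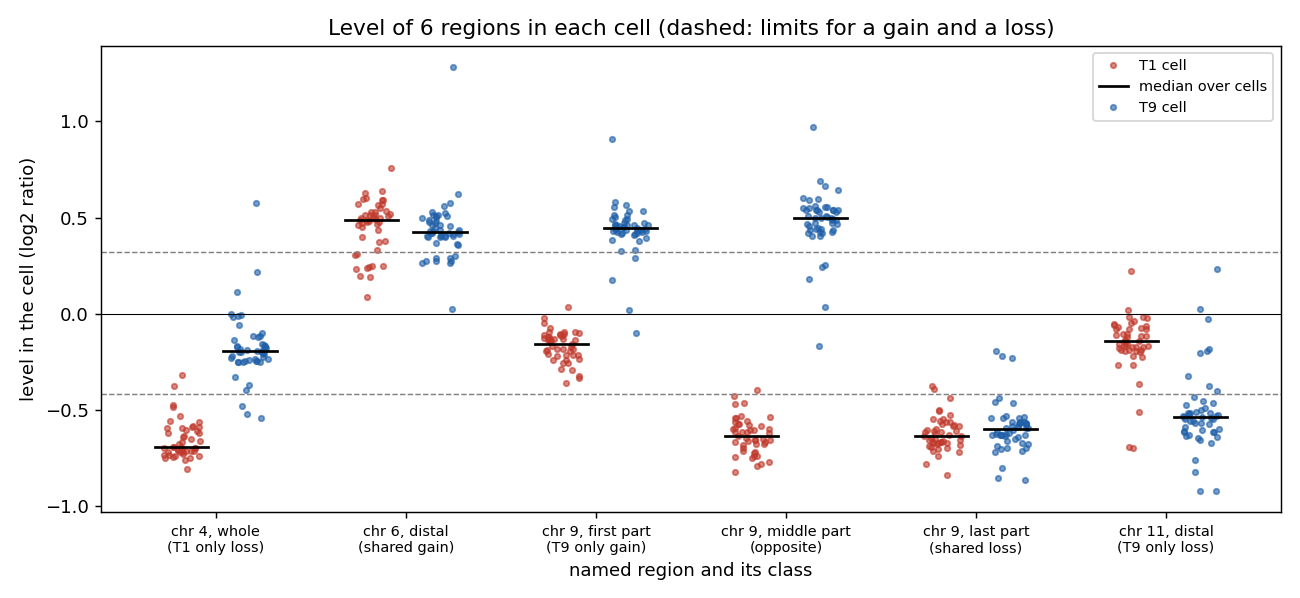
Level of the 6 named regions in each cell, as the median log2 ratio of the region's bins, with T1 cells in red, T9 cells in blue, a black bar at the median over cells and dashed lines at the limits for a gain (0.32) and a loss (-0.42). In the middle part of chromosome 9 the highest T1 cell (-0.39) lies below the lowest T9 cell (-0.17), whereas on distal chromosome 6 and the last part of chromosome 9 the tumours overlap.

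Among the 6 regions the largest difference between T1 and T9 was on chromosome 9. T1 held a lower level over chr9:28342824-47252283 (38 bins, 18.9 Mb, 253 protein-coding genes), with a lowest cell at -0.82, a median of -0.63 (SD 0.09, n = 47 cells) and a highest cell at -0.39. T9 had a lowest cell at -0.17, a median of 0.50 (SD 0.16, n = 50 cells) and a highest cell at 0.97. The 2 sets of cells did not overlap, and T1 minus T9 was -1.13 between the medians. The region was lost in 47 of 47 T1 cells (100%, interval 92.5 to 100%) and in none of the T9 cells (0 of 50, an upper limit of 6%). It was gained in 45 of 50 T9 cells (90%, interval 78.2 to 96.7%). T7 stood at -0.03.

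Before that region, over chr9:3491634-28342823 (50 bins), T9 carried the same gain, at 0.44 (SD 0.14), and 44 of 50 T9 cells were called. T1 stood at -0.16 (SD 0.08) there, from -0.36 in the lowest cell to 0.04 in the highest, and 0 of 47 T1 cells were called either way. After it, over chr9:47252284-124495110 (156 bins, 749 protein-coding genes), the tumours met. T1 had -0.63 (SD 0.09) and T9 -0.60 (SD 0.13), and 45 of 47 cells in T1 and 47 of 50 in T9 carried the loss. T7 was at -0.02. The difference of medians over this piece, -0.03, was smaller than the spread over cells in either tumour.

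So both tumours had lost the distal part of chromosome 9, and the 2 losses began 18.9 Mb apart. In T1 the level dropped at position 28342824, and in T9 it dropped at position 47252284. The size of a step was measured in each cell as the mean of the 20 bins after the break minus the mean of the 20 bins before it, which does not depend on how a cell is centred. At the T1 break the step had a median of -0.45 (SD 0.08) in T1 cells, between -0.71 and -0.32, and all 47 went down. In T9 cells the same place had a step of 0.11 (SD 0.06), between -0.05 and 0.25, which lies wholly above the T1 cells. The 20 bins after this break take in 4 bins where T9 rose further and a bin where T1 was lower still, described below. Beside the break itself T9 was level, with neighbouring bins at 0.54, 0.46 and 0.55. A cell's own segmentation put a break of the same direction within 5 Mb in 46 of 47 cells in T1 and 0 of 50 in T9.

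At the T9 break the step was -1.11 (SD 0.27) in T9 cells, between -1.88 and -0.01, and 49 of 50 T9 cells lay outside the T1 range. T1 cells had -0.08 (SD 0.09) there. The cell's own break was found in 49 of 50 cells in T9 and 1 of 47 in T1. T7 had steps of 0.01 and -0.02 at the 2 places, so neither position is a feature of all the tumours.

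**Figure D3:**
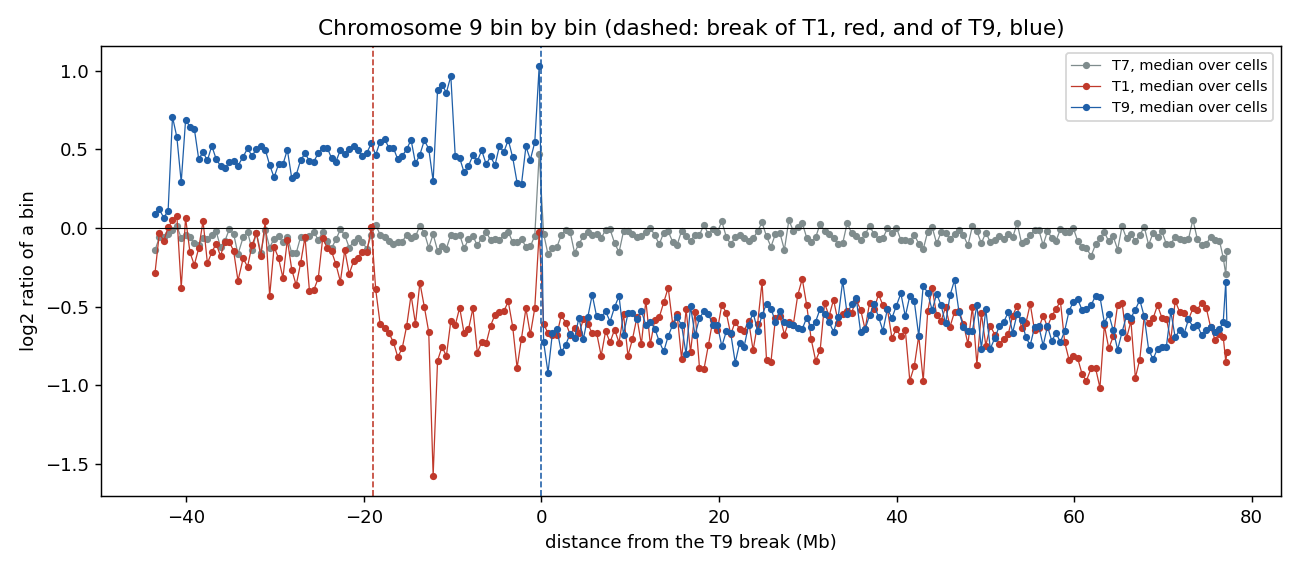
Median log2 ratio of the bins of chromosome 9 in T1, T9 and T7 against the distance in Mb from the T9 break, with dashed lines at the T1 break (red) and the T9 break (blue). The T1 level drops 18.9 Mb before the T9 level does, the curves meet after the T9 break, and T7 stays near 0 except in the gene-free bin just before the T9 break.

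The T9 break fell between neighbouring bins. The bin 2 before it, which holds Apoa5, Zpr1 and Bud13, was at 0.54, the gene-free bin just before it was at 1.03, and the first bin after it, which holds part of Cadm1, was at -0.72. Cadm1 encodes a cell adhesion molecule of epithelial cells. The gene-free bin was also high in T7 (0.47) and stood above its neighbours in T1 (-0.03), so its height is not particular to T9. In 49 of 50 T9 cells the best single split of the surrounding bins lay exactly at this place. The T1 break was less sharp. Its step was also smaller, -0.45 in T1 cells against -1.11 in T9 cells, and the median noise was 0.19 against 0.13. The part of step size and noise in the sharpness was not tested. In the median profile it fell inside Opcml, with 3 neighbouring bins at 0.00, -0.39 and -0.61. Opcml encodes a cell surface protein of the IgLON family, and the next gene, Ntm, belongs to the same family. The best split was exactly there in 13 of 47 T1 cells and 1 bin later in 13 more, and in 27 of 47 it was within 1 bin (57.4%, interval 42.2 to 71.7%). With only the bins of at least the median deposited weight, the T1 break lay at position 30333294, past the end of Ntm. The T9 break then lay at position 48247519, past the end of Cadm1. The gene at the T1 break is therefore not resolved, and the place of the T9 break beside Cadm1 rests on the full set of bins.

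Inside the opposite region, the largest differences of single bins were clustered. T9 rose further over chr9:35309467-37299936 (4 bins, 1.99 Mb, 29 protein-coding genes), from a lowest cell at -0.16 through a median of 0.92 (SD 0.21) to a highest cell at 1.59. The 10 bins before the bin next to it had 0.50 and the 10 after it 0.42 in T9. T1 had -0.77 (SD 0.15) in these 4 bins, between -0.97 and -0.16, against -0.64 and -0.62 on the sides. They hold Cdon, Chek1, Stt3a, Ei24 and Fez1. Chek1 encodes a kinase of the DNA damage checkpoint, and Ei24 is a gene induced by p53. The bin just before, with Kirrel3, St3gal4 and Tirap, was lower still in T1, at -1.58 (SD 0.37). It did not share the rise of T9, which had 0.30 (SD 0.25) there, and this was the largest difference of any bin (-1.87). In that bin T7 cells spread from -1.33 to 0.68 around -0.04, with an SD of 0.49, the widest of the 3 tumours. A bin of chromosome 14 that starts at 18922138 and lists only Gm21738 came next, with -1.59 in T1 and 0.21 in T9. At the other end, the highest difference was that of the last bin of chromosome 4, which is cut short by the chromosome end.

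Chromosome 4 was the longest private change. Over chr4:3050001-156358116 (311 bins, 1301 protein-coding genes) the T1 cells ran from -0.81 through a median of -0.69 (SD 0.10) to -0.31. The T9 cells ran from -0.54 through -0.20 (SD 0.17) to 0.58. The loss was found in 45 of 47 cells in T1 (95.7%, interval 85.5 to 99.5%) and in 5 of 50 in T9 (10%, interval 3.33 to 21.8%). The groups overlapped, with 42 of 47 T1 cells below every T9 cell. T9 was itself below 0 in 46 of 50 cells, while T7 was at -0.04, so the difference of medians, -0.50, is smaller than the T1 level taken from 0. Within chromosome 4 the T1 profile had a break at 150834565, where the last 12 bins rose from -0.75 to -0.32, and 16 of 47 T1 cells had a break of their own within 5 Mb of it.

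Chromosome 6 was gained in both tumours, but not over the same length. Distal to chr6:69719313 (160 bins, 79.9 Mb) T1 had 0.49 (SD 0.14), between 0.09 and 0.76, and T9 had 0.42 (SD 0.16), between 0.02 and 1.28. Gained cells were 37 of 47 in T1 (78.7%) and 41 of 50 in T9 (82%), and the cells overlapped. T7 had 0.38 there, so this gain was common to all 3 tumours. On the near side, over chr6:50235025-69719312 (39 bins), T1 stood at 0.39 (SD 0.14) with 37 of 47 cells gained. T9 stood at 0.04 (SD 0.14) with 2 of 50. T7 was gained there too, at 0.37 in 35 of 48 cells, so T9 was the tumour without this gain. Nearer still to the centromere, the bins before 50235025 had 0.20 (SD 0.16) in T1 and 0.02 in T9, while T7 had 0.38. The step at the end of the T9 gain was 0.35 (SD 0.10) in T9 cells and 0.05 (SD 0.06) in T1 cells, and it fell in the variable genes of the immunoglobulin kappa locus, where the bins on its sides had 0.12 and 0.41 in T9. T9 cells had a break of their own there in 49 of 50 cases, against 2 of 47 T1 cells. The best split was exactly at that bin in 36 of 50. With only the bins of at least the median weight, this T9 break lay at position 70718508, the start of the bin that holds Igkc.

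Distal chromosome 11 was lost in T9 alone. Over chr11:99034872-121982543 (46 bins, 476 protein-coding genes) T9 ran from -0.92 through -0.54 (SD 0.21) to 0.23, and 43 of 50 cells were called (86%, interval 73.3 to 94.2%). T1 ran from -0.70 through -0.14 (SD 0.16) to 0.22, with 2 of 47 cells called, and the cells overlapped. The break lay between the bin that holds Top2a, at -0.03 in T9, and the bin with Igfbp4, Smarce1 and Krt10, at -0.70. The step was -0.57 (SD 0.18) in T9 cells and -0.06 (SD 0.07) in T1 cells, and the best split was exactly there in 45 of 50 T9 cells. T1 was lower than T9 before the break and higher after it. When the ratio was built from depth, this region's T1 level turned from -0.14 to 0.20 while that of T9 was -0.55.

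Chromosome 17 held another clear step, and its gain fell just short of the rule. In T9 the level went from -0.04 (SD 0.15) before position 59285304 to 0.31 (SD 0.15) after it, and it was higher after the break in 49 of 50 cells. The distal part reached the limit for a gain in only 24 of 50 T9 cells (48%) and in 0 of 47 T1 cells, and the T9 median lies beside that limit. The break itself was found in 48 of 50 cells in T9 and 1 of 47 in T1. Its step was 0.44 (SD 0.14) in T9 cells and 0.03 (SD 0.09) in T1 cells. The bin before the break holds Nudt12, and the 4 bins after it list no gene.

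**Figure D4:**
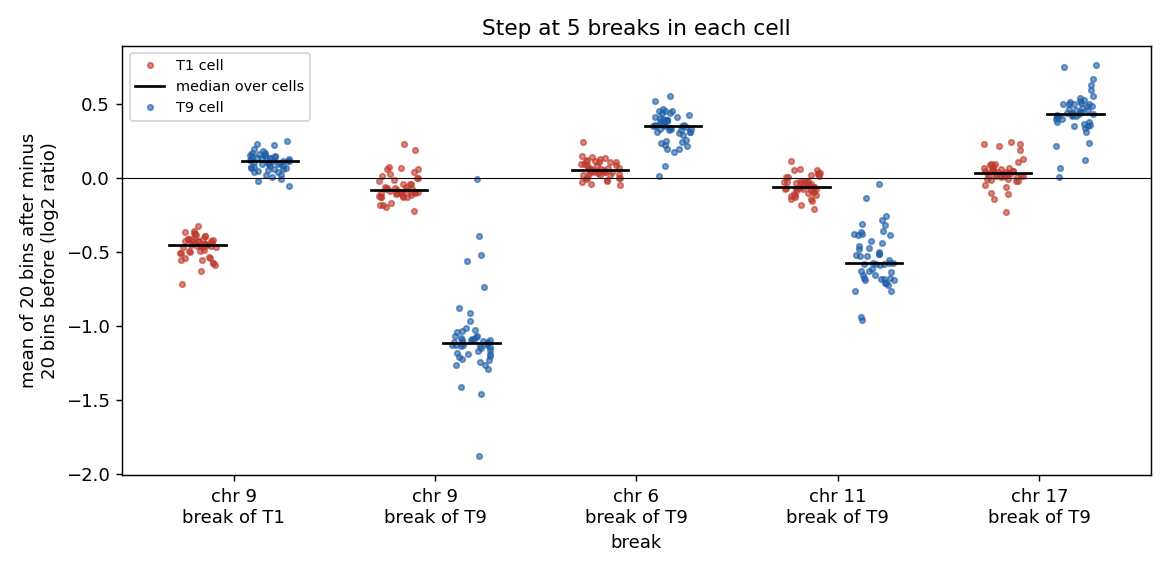
Step at 5 breaks in each cell, as the mean log2 ratio of the 20 bins after the break minus that of the 20 bins before it, with T1 cells in red, T9 cells in blue and black bars at the median over cells. Each break stands out in the tumour it was found in and lies near 0 in the other, with T9 medians of -1.11, 0.35, -0.57 and 0.44 at its 4 breaks and a T1 median of -0.45 at its own.

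The 4 breaks of T9 occurred together. All 4 were found in 48 of 50 T9 cells (96%, interval 86.3 to 99.5%), 1 cell had 3 and 1 had none. No T1 cell had more than 2 of them within 5 Mb, and 40 of 47 had none. The T1 break on chromosome 9 was found in 46 of 47 T1 cells (97.9%, interval 88.7 to 99.9%) and 0 of 50 T9 cells. The T1 profile also had a break on chromosome 19, at position 9814604, between 13 bins at -0.27 and 103 bins at 0.02. It was found in 28 of 47 T1 cells and in 3 of 50 T9 cells, and was no break of the T9 or T7 profile. The T1 break on chromosome 9 and the 4 T9 breaks each had no break of the other profile within 2 Mb. That none of these 5 was found in most cells of both tumours follows in part from this. Outside these 5, a T1 break on chromosome 7 was found in 30 of 47 T1 and 22 of 50 T9 cells. The break at position 174999822 of chromosome 2 was found in 41 of 47 T1 and 50 of 50 T9 cells. A break at position 16931871 of chromosome 14 was found in 35 of 47 and 49 of 50, but only the T1 profile broke there. The T9 profile fell at position 7975668 instead, a break found in 0 of 50 T9 cells. Segments of a cell span at least 10 Mb, so which of the 2 drops those cell breaks reflect cannot be told apart. Both tumours had a gain on chromosome 6 and a loss of distal chromosome 9.

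Counted over the profiles, T1 had 40 breaks and T9 had 20. Most of them bordered a narrow segment, with fewer than 10 bins on a side, 30 of the 40 in T1 and 15 of the 20 in T9. The profiles shared 10 places within 2 Mb, and 9 of these were also breaks of T7, among them the pair on distal chromosome 2 around a dip to -1.10 in T1 and -0.93 in T9, and the pair on chromosome 4 from 111821644 to 114310271. Places common to 3 tumours of 1 animal do not separate T1 from T9. In the segments of single cells, 5 of the T1 breaks and 7 of the T9 breaks were found in at least 50% of the tumour's own cells. Those segments span at least 10 Mb, so a narrower one cannot stand on its own in a cell. The rise at position 178191769 of chromosome 2, a step of 1.36 in T1, was found in 0 of 47 T1 cells. The count therefore does not measure how many cells carry the narrow segments. With only the bins of at least the median weight, T1 had 3 breaks, on chromosomes 6, 8 and 9, and T9 had 4, on chromosomes 6, 9, 11 and 17. The difference profile then had 6 breaks in place of 55. Those 4 T9 breaks lay within 2 Mb of the 4 described above. The T1 break on chromosome 9, then placed at position 30333294, lay within 2 Mb of a break of the full T1 profile. The T1 breaks at position 52233414 of chromosome 6 and position 18320500 of chromosome 8 did not.

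Whole chromosomes also set the tumours apart at moderate levels. In T1, 17 of 19 autosomes had a median at least 0.1 away from 0, and in T9 only 4, chromosomes 4, 6, 9 and 19. The T1 count was 12 with each cell centred on its mode and 13 with the mean over cells or the ratio taken from depth, while that of T9 stayed at 4 under these settings. T1 had 8 chromosomes between 0.11 and 0.22 and 6 between -0.19 and -0.11, and outside these lay chromosomes 4, 6 and 9. Chromosomes 1 and 13 were within 0.1 of 0. On chromosome 17, with a T1 median of 0.11, 26 T1 cells lay above 0 and 21 below. On chromosome 19, with a T1 median of -0.11, 21 lay above and 26 below. These 2 medians are therefore no level common to the T1 cells. In T9, 15 chromosomes lay between -0.02 and 0.08. The T1 median of chromosome 12 was 0.19 (SD 0.08) and that of T9 0.03 (SD 0.15), and 46 of 47 T1 cells lay above the T9 median. Chromosome 18 had 0.22 in T1 and 0.02 in T9. On the low side, chromosome 10 had -0.18 (SD 0.19) in T1 and 0.02 (SD 0.12) in T9, with 47 of 47 T1 cells below the T9 median, and chromosome 15 had -0.18 (SD 0.10) and 0.03 (SD 0.08), with 46 of 47 below. T7 stood at -0.02 on each of these 4 chromosomes. Since each cell is centred on its own median, a level states a share of the cell's DNA. The order of the chromosomes within a single cell does not depend on that centre. The order of medians over cells can, because each cell shifts by its own amount.

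**Figure D5:**
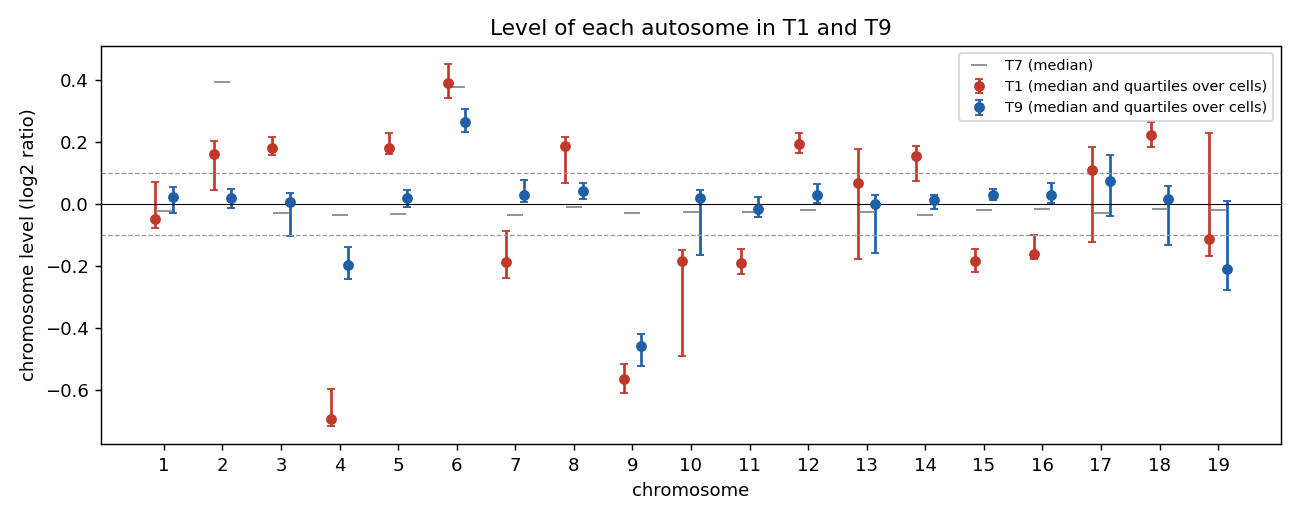
Level of each autosome as the median log2 ratio over its bins, with points at the median and bars at the quartiles over the cells of T1 (red) and T9 (blue), a grey dash at the T7 median and dashed lines 0.1 either side of 0. In T1 17 of 19 chromosomes lie beyond the dashed lines and in T9 4 of 19.

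Changes in a minority of cells covered more bins in T1. Bins gained or lost in at least 20% but under 50% of the cells numbered 826 in T1 (17.2%) and 92 in T9 (1.91%). At the 20% limit T1 added a loss of chr7:3000001-19123448 at -0.43 (SD 0.20), carried by 21 of 47 cells there and by 0 of 50 in T9, which stood at 0.08. It added a loss of chromosome 10 in 13 of 47 cells, against 0 of 50 T9 cells and 9 of 48 T7 cells. A loss of chr13:32179806-120321639 was carried by 10 of 47 T1 cells, against 1 of 50 T9 cells and 0 of 48 T7 cells. Gains in T1 included distal chromosome 8 in 18 of 47 cells, proximal chromosome 8 in 15, distal chromosome 3 in 10 and a part of chromosome 13 in 13. In that last place the T1 cells spread from -0.25 to 4.08, and the T9 cells from -0.50 to 0.26. T9 added the gain of distal chromosome 17. The start of chromosome 14 was gained at this limit in both, in 17 T1 and 21 T9 cells, and T7 had it in 10 of 48. In the profiles only its first 9 bins in T1 and 10 in T9 were raised, at 0.62 and 0.72. T7 had a break at the same place. Over the whole run the level was 0.29 in T1, 0.14 in T9 and 0.07 in T7, since a cell's segments span at least 10 Mb. The step at the end of the chromosome 7 loss, 0.16 in T1, was also present in T9 (0.11) and T7 (0.14), so it is not private to T1.

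Most cells of each tumour carried all of its regions. All 4 regions of T1 were called in 35 of 47 cells (74.5%, interval 59.7 to 86.1%), and 10 of the remaining cells lacked 1, most often the chromosome 6 gain. All 5 regions of T9 were called in 34 of 50 cells (68%, interval 53.3 to 80.5%), 11 lacked 1, 3 lacked from 2 to 4, and 2 had none called. Those last 2 cells still had steps of -0.39 and -0.52 at the T9 break of chromosome 9, and 0.18 or less at that of chromosome 6, with noise of 0.13 in both. Of the regions private to the other tumour, 2 of 47 T1 cells carried the distal chromosome 11 loss and 5 of 50 T9 cells the chromosome 4 loss. Calls outside the named regions covered a median of 3.43% of the bins in T1 cells and 3.27% in T9 cells.

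Of 76 genes of the fixed lists, 18 lay in a class other than neither (23.7%, against 16.6% of all bins). T1 was at least 0.30 lower at 21 of the 76 (27.6%, against 15.6% of all bins) and higher at 3 (3.95%, against 11.9%). These lists follow the roles of the genes in lung tumours, and a gene takes the class of the bin that holds its middle. Neighbouring genes share 1 change, so the genes of a list are not independent of each other. The values below are log2 levels of that bin, and gene dose is not expression.

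Of the recombined loci, Trp53 (chr11:69580348-69591873) was in neither class, at -0.28 in T1 and 0.02 in T9 (a difference of -0.30, or 0.24 with the ratio taken from depth), with 5 of 47 and 0 of 50 cells lost. The Cre-mediated deletion in Trp53 is far smaller than a bin and could not be seen. Gt(ROSA)26Sor, the reporter locus, lay in the shared gain of chromosome 6, at 0.47 and 0.41.

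The DNA damage response list had 5 of its 12 genes outside neither (41.7%, against 16.6% of all bins). Of these, Chek1, H2afx, Atr and Mre11a all lie on chromosome 9. Chek1 was at -0.81 in T1 and 0.86 in T9, a difference of -1.67 and the widest among the 76 genes. H2afx (H2ax in RefSeq), the histone variant that marks broken DNA, was at -0.89 and 0.29. Chek1 and H2afx lie in the opposite region, lost in 47 of 47 T1 cells and gained in 45 of 50 T9 cells. Atr, the kinase that activates Chek1, lay further along in the shared loss, at -0.50 and -0.65. Mre11a, a nuclease that prepares broken ends, was gained in T9 alone, at -0.11 and 0.46, and its difference of -0.57 was -0.15 with the ratio taken from depth. Brca1, which acts in repair by recombination, was lost by the cells' segments in 42 of 50 T9 and 5 of 47 T1 cells. Its own bin was at -0.43 in T1 and -0.44 in T9, and with the ratio taken from depth T1 was 0.52 higher there.

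Of 18 tumour suppressors, 8 lay outside neither (44.4%, against 16.6% of all bins). Cdkn2a and Cdkn2b, inhibitors of the cell cycle kinases, share a bin of chromosome 4 at -0.70 in T1 and -0.27 in T9, lost in 45 of 47 and 7 of 50 cells. Arid1a, a chromatin remodelling subunit on the same chromosome, was at -0.92 and -0.08, and its difference of -0.84 was -0.35 with the ratio taken from depth. Atm, a kinase that acts above p53, and Setd2, a histone methyltransferase, lay in the shared loss of chromosome 9, with Atm at -0.67 in T1 and -0.56 in T9 and Setd2 at -0.62 and -0.60. Keap1, which restrains the oxidative stress response, and Smarca4, a remodelling ATPase, were gained in T9 alone, at 0.43 and 0.42, and T1 had -0.40 and -0.39 there. With the ratio taken from depth, T1 minus T9 shrank from -0.83 to -0.22 at Keap1 and from -0.82 to -0.28 at Smarca4, and it was 0.41 at Setd2 and 0.38 at Cdkn1b. Cdkn1b lay in the shared gain of chromosome 6, at 0.39 in both. The other 10 suppressors, among them Rb1 and Stk11, were in neither class.

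Of 18 oncogenes, 3 lay outside neither (16.7%, near the 16.6% of all bins). Yap1, the Hippo pathway coactivator, and Birc2, an inhibitor of apoptosis, are neighbours in the T9-only gain, at 0.63 and 0.64 in T9 and -0.24 and -0.16 in T1. Ret, a receptor kinase, was at 0.17 and 0.41 in the shared gain. Without a class, the single bin of Met was 0.37 higher in T1. T1 minus T9 was -0.46 at the Erbb2 bin, -0.39 at Mdm2, -0.36 at Cdk4 and -0.30 at Myc. The cells' segments lay closer together, at 0.20 in T1 and 0.02 in T9 for Met and -0.22 and 0.02 for Erbb2. They were at -0.19 and 0.004 for Mdm2 and Cdk4, and -0.19 and 0.03 for Myc. Of 11 genes of alveolar type 2 identity, 1 was in a class (9.09%, against 16.6% of all bins). This was Sftpb, in the shared gain, at 0.38 and 0.43. The other 10 were in neither class, with the Lyz2 bin on chromosome 10 at -0.55 in T1 and -0.06 in T9. The segments that hold Lyz2 were at -0.19 in T1 and 0.004 in T9. The list of plasticity and mesenchymal genes had 0 of 15 in a class, against 16.6% of all bins. By the 0.30 rule, Zeb2 and Cdh2 were higher in T1 (13.3%, against 11.9% of all bins). Hmga2 and Snai2 were lower (13.3%, against 15.6%). These are single bins too. The segments were at 0.18 in T1 and 0.02 in T9 for Zeb2 and 0.21 and 0.01 for Cdh2. They were at -0.19 and 0.004 for Hmga2 and -0.23 and 0.01 for Snai2.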

How the data were processed

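Single-cell genomic DNA was sequenced, and the submitters' processing notes name BWA 0.7.17 and GRCm38. The deposited tables give 5331 bins for each cell. The depth table holds the coverage signal per bin, the log2 ratio table a log2 value already centred near 0 by the authors, and the weight table a deposited score per bin. For the ratio and the score, the tool and reference are not stated in the sources used here, nor are the sorting and amplification.

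Autosomal bins with depth in at least 80% of cells were kept. Noise was the scaled median absolute difference of neighbouring bins, with a limit of the median plus 3 scaled deviations. Each cell was centred on its autosomal median and divided by least-squares optimal partitioning (penalty 3 times the natural log of the bins, segments of at least 5 bins and 10 Mb). Median profiles were divided likewise, without the 10 Mb limit, and steps under 0.20 merged. Breaks within 2 Mb were called the same place. The procedure was tested on simulated data. Scripts used Python 3.11.15 (scipy 1.17.1, numba 0.67.0, numpy 2.4.6, matplotlib 3.10.9, pandas 2.3.3).

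The members, lists and rules were chosen with earlier results of these data known. Named genes are the recombined loci, of which 1 is not reported here, and at most 30 list members in a class other than neither, and others named were chosen after their values were seen. Gene positions and microRNA sequences came from RefSeq on GRCm38.p6. All 76 genes were placed. Where 0 cells were counted, 3 cells of the total is the upper limit. No pair of cells had identical columns. Alternatives covered the filter, centre, thresholds, penalty, depth and bins.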

Additional observations from a re-analysis of the deposited data

How the results depend on the processing

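No paired analysis was possible because the cells of the tumours carry no shared replicate numbers and no test was made. The alternatives for the steps, the counts of cells and the count of autosomes were chosen after seeing the data. A step within a cell cannot move with the centre of that cell, and a filter on T1 cells cannot move a T9 step. Over the settings of cells, centre, profile, depth and bins, the T1 step stayed between -0.52 and -0.44, and the T9 steps between -1.11 and -1.06 on chromosome 9, 0.31 and 0.42 on chromosome 6, -0.58 and -0.57 on chromosome 11, and 0.42 and 0.44 on chromosome 17. Of 297 comparisons with the values reported for the main results, 242 stayed within the spread or within 1.5 times, and 55 did not. A stricter noise limit, which left 38 T1 and 50 T9 cells, and the mean over cells moved none of them. Some of the 242 could not change, so their count does not measure how firm the results are. The class shares come from the segments of single cells, which the mean over cells leaves as they are. The stricter limit removed no T9 cell, so it could not move a T9 value.

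With the ratio taken from depth against T7, T1 was higher in 29.5% of bins and lower in 24.8%, the shares of bins were 0 for a shared gain, 1.02% for a shared loss, 13.1% for a T1-only gain, 2.81% for a T9-only gain and 3.10% for a T9-only loss, and the breaks numbered 213 in T1, 8 in T9 and 233 in the difference. The distal chromosome 6 level was then 0.23 in T1 and 0.044 in T9, since the T7 gain is subtracted by construction, T1 had -0.41 and -0.40 on the opposite and shared parts of chromosome 9 and 0.20 on distal chromosome 11, and the cells with all regions fell to 0% in T1 and 2% in T9. The difference at Trp53 turned from -0.30 to 0.24, and 12 more of the 19 genes moved by over 1 SD of the cells. For those whose values are not given in the report, these were -1.92 at Chek1, -0.72 at H2afx, 0.12 at Ret, 0.40 at Gt(ROSA)26Sor and 0.40 at Sftpb. The cause was not tested.

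Mode centring gave 7.26% of bins higher and a T1 level of -0.73 in the opposite region. A difference of 0.20 gave 23.6% higher and 23.99% lower, one of 0.40 gave 4.79% and 9.57%, and a running median over 5 bins gave 7.62% higher. Stricter thresholds of 0.45 and -0.70 left 0% of bins as shared gains, shared losses, opposite, T1-only losses and T9-only losses, 2.23% as T1-only gains, all regions in 2.13% of T1 and 0% of T9 cells, and 3.95% of the fixed genes in a class. Looser thresholds gave 2.60% T1-only and 2.54% T9-only gains. A share of 20% of cells gave 7.93% T1-only gains, 16.1% T1-only losses, 2.52% T9-only gains and 40.8% of the genes. A share of 80% gave 0.52% shared gains, 0.15% T1-only gains and 3.47% T9-only gains. The 16 T1 cells within the T9 depth range gave 2.77% T1-only gains. Without the 39 bins that stood alike in all tumours, T9 had 10 breaks. Bins of at least the median weight gave 6.33% higher and 3, 4 and 6 breaks in T1, T9 and the difference, steps of 0.30 gave 21, 13 and 32, and segments of 10 bins gave 22, 10 and 27. A step of 0.15 gave 36 in T9. By the rule for segments, a change shorter than 10 Mb has no call of its own in a cell.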

Other observations

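Outside the called changes, the T1 level varied with the number of genes in a bin more than the T9 level did. Over the 4006 bins in neither class the rank correlation between the level and the number of gene names was -0.13 in T1 and -0.01 in T9, as a description across bins of the same cells. The SD of the level over these bins was 0.23 in T1 and 0.10 in T9. Within the T9-only loss of distal chromosome 11 the difference was also uneven. The bin of Rbfox3 alone stood at 0.45 in T1 and -0.74 in T9, and a bin that lists only Gm11677 and Gm11674 stood at 0.31 and -0.86, while the difference at the Brca1 bin was 0.009, or 0.52 with the ratio taken from depth. The bin with Sox9, a transcription factor of the lung epithelium, was at 0.05 in T1 and -0.79 in T9.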
